A study of Mus musculus with 141 samples.

Results

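The heat shock chaperones described here were 10 genes chosen by name for their place in the family: the Hsp70 genes Hspa1a, Hspa1b, Hspa8 and Hspa5, the Hsp70 partner genes Hsph1 and Dnajb1, the Hsp90 genes Hsp90aa1 and Hsp90ab1, the small heat shock protein gene Hspb1 and the mitochondrial chaperonin gene Hspd1. They were 10 of the 24423 genes in the files, and all 10 were among the 12127 genes with enough counts to be tested. Gene expression had been measured by RNA-seq in liver, lung and kidney from 1 male mouse of each of 47 Collaborative Cross (CC) strains, recombinant inbred lines whose genomes are mosaics of a common set of founder strains. The 141 libraries formed 3 groups of 47, 1 per tissue, and all tissues of a strain were from 1 animal. All mice were adults of 8 to 12 weeks, ate the NTP 2000 diet under a 12-h light-dark cycle, and had spent 6 hours a day from Monday to Friday over 2 weeks in chambers that delivered clean air, so no group was left unexposed to the chamber. They were anesthetized with nembutal and exsanguinated, the organs were snap-frozen, and total RNA was sequenced after ribosomal depletion. With 1 mouse per strain, a difference between strains and a difference between individual mice cannot be told apart. The study's methods name sequencing batches, but the labels do not assign libraries to them and give no time of collection, so no comparison within batches was made.

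Heat shock chaperones bind unfolded or partly folded proteins and help them reach or keep their shape. When unfolded protein builds up in the cytosol, as in heat or other stress, heat shock factor 1 (HSF1) is released, trimerizes and binds heat shock elements, arrays of the letters GAA in alternating orientation, in front of Hspa1a, Hspa1b, Hsph1, Dnajb1, Hspb1 and other genes. Some members, such as Hspa8 and Hsp90ab1, are made at high level in unstressed cells, and Hspa5 answers to unfolded protein in the endoplasmic reticulum (ER) through a separate pathway and its own promoter element.

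Total expected counts per library ran from 1738046 to 42158454, with medians of 10423382 in liver, 9338124 in lung and 8245850 in kidney. Tissue markers matched the labels: the summed TPM (length-adjusted abundance, summing to the same total in each library) of 5 hepatocyte genes was 31630 to 130960 in liver and at most 7942 elsewhere, that of 5 lung epithelial genes was 19301 to 165409 in lung and at most 390 elsewhere, and that of 5 kidney tubule genes was 28615 to 161253 in kidney and at most 1597 elsewhere. Lung libraries also held 107 to 2246 summed TPM of 4 cardiac muscle genes, whose part in the lung values was not tested. Rn45s, a ribosomal RNA precursor gene, and Lars2, the gene of the mitochondrial leucyl-tRNA synthetase, together took between 0.206% and 90.5% of a library's counts, with medians of 43.2% in liver, 24.1% in lung and 32.3% in kidney. The highest shares were 90.3% in the liver library of strain CC033, which left 491533 counts on other genes, and 90.5% in the lung library of strain CC015, which left 987292. The TMM factor of that lung library was 0.24 against a lung median of 1.94. Counts of correlated members and rho of Hsph1 between tissues are given with and without CC015. Other values include it unless stated. These shares move every other gene on a TPM scale, and tissue comparisons were made on counts scaled by TMM (trimmed mean of M values). On that scale the median log2 fold change over all tested genes was -0.05 for liver against lung, 0 for liver against kidney and 0.04 for lung against kidney, whereas on log2(TPM + 1) it was -1.21, -0.72 and 0.47. The calls over all genes split accordingly, with 2910 genes higher in liver and 3760 higher in lung on the TMM scale against 1004 and 6969 on log2(TPM + 1), 1891 higher in liver and 2521 higher in kidney against 820 and 4200, and 3082 higher in lung and 2514 higher in kidney against 3718 and 1554. Leaving Rn45s and Lars2 out of the totals, an alternative chosen after seeing the data, gave medians of -1.24, -0.84 and 0.39. These were near the medians on log2(TPM + 1), and what else sets the scales apart was not tested. TMM brings the difference of the typical gene close to 0 by design, so these medians and calls cannot show which scale is right. Tissue differences in TPM are given below only where they bear on a TMM result.

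The sequences before the transcription start show which members carry heat shock elements that this kind of search can see. RefSeq windows on GRCm38.p6 matched 7 of the 10 members, and the 160 bases before the start are printed here for the 6 that held a match, with the matched letters in capitals. The searched motifs were GAANNTTC and TTCNNGAA, each a pair of inverted units and each its own reverse complement so that both strands were covered, the arrays of 3 alternating units GAANNTTCNNGAA and TTCNNGAANNTTC, which contain the shorter motifs, and the ER stress response element (ERSE), CCAAT and CCACG separated by 9 bases, on both strands.
Hspa1a: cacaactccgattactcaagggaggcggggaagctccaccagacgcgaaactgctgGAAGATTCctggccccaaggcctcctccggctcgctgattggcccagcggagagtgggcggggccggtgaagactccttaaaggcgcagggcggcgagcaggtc
Hspa1b: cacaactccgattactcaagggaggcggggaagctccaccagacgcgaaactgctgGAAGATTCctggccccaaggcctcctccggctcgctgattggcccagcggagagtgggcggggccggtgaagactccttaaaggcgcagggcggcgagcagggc
Hsph1: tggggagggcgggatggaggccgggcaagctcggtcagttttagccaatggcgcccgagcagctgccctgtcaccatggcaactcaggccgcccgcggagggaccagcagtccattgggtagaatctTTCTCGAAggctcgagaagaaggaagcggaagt
Hspb1: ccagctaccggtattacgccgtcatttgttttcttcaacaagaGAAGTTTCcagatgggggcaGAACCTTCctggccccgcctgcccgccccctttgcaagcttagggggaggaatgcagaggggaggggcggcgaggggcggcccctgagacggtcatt
Hspd1: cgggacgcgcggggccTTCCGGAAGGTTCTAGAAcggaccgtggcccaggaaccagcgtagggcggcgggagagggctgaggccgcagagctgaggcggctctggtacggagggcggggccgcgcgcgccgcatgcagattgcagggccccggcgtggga
Hspa5: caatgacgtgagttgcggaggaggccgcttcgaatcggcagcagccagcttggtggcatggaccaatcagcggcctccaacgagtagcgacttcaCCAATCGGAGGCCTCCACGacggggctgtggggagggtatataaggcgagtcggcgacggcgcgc
The windows lie on the minus strand at chr17:34972157-34972316 (Hspa1a), chr17:34959239-34959398 (Hspa1b), chr5:149636337-149636496 (Hsph1) and chr1:55087933-55088092 (Hspd1), and on the plus strand at chr5:135887759-135887918 (Hspb1) and chr2:34771930-34772089 (Hspa5). Hspa1a and Hspa1b, neighbouring genes that encode nearly the same protein, had 247 of 250 upstream bases in common, and both held GAANNTTC between 104 and 97 bases before the start. Hsph1 held TTCNNGAA between 33 and 26 bases before its start, and Hspb1 held GAANNTTC at 117 to 110 and at 97 to 90. Hspd1 held overlapping units from 144 to 127 bases before the second of its annotated starts, which include both arrays of 3 units. Over 250 bases before the start, a pair of units was present in 12.8% of 32851 annotated windows, an array of 3 in 0.466%, and the ERSE, which Hspa5 held from 65 to 47, in 0.113%. None of these motifs was in the 250 bases before the starts of Dnajb1 or the first start of Hspd1.

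The constitutive Hsp70, Hspa8, was the most abundant member in every tissue. Hspa8, which folds new proteins and uncoats clathrin vesicles, is at chr9:40609067-40613283 on the plus strand (NCBIM37, as for all gene positions below). Its TPM had a lowest, median and highest value over 47 strains of 384, 1014 and 3230 in liver, 591, 1656 and 5037 in lung, and 1202, 2806 and 6179 in kidney. In the median library it supplied 47.2% of the TPM of the 10 members in liver, 47.1% in lung and 56.9% in kidney, and all 10 members together made up 0.225%, 0.353% and 0.541% of all TPM. Both Hsp90 genes were abundant as well, and Hsp90ab1 was the higher of the pair. Hsp90ab1 (chr17:45704724-45710220, minus strand), the constitutive form that matures kinases and steroid receptors, had a lowest, median and highest TPM of 184, 499 and 1120 in liver, 341, 893 and 2110 in lung, and 304, 986 and 1536 in kidney. For Hsp90aa1 (chr12:111928815-111940938, minus strand), the stress-inducible form, the same values were 55.5, 176 and 976 in liver, 136, 489 and 1331 in lung, and 140, 498 and 1139 in kidney.

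Hspa1a and Hspa1b, the Hsp70 genes most strongly induced by heat, were low in most libraries and high in a few. Hspa1a (chr17:35106144-35109069, minus strand) had a lowest, median and highest TPM of 0, 0.95 and 31.8 in liver, 1.27, 7.48 and 198 in lung, and 0.4, 5.34 and 63.3 in kidney, and 11 of 47 liver libraries held at most 3 counts of it. Hspa1b (chr17:35093381-35096183, minus strand) had 0.93, 4.18 and 83.7 TPM in liver, 1.24, 8.5 and 259 in lung, and 1.41, 8.64 and 113 in kidney. The 2 genes lie 9960 bases apart. Of the 50-base stretches of Hspa1a transcripts, 61.0% also occur in Hspa1b, and 61.2% of those of Hspa1b occur in Hspa1a. The authors quantified uniquely aligned reads, so reads from these stretches may be missing from both genes or divided between them. Over all 141 libraries, 25 expected counts were not whole numbers. The summed TPM of the pair does not depend on a division of reads, but it would also lack any missing reads. That sum ran over 0.97, 5.3 and 115 in liver, 3.55, 15.7 and 457 in lung, and 1.81, 14.2 and 176 in kidney. The standard deviation (SD) of log2 CPM (counts per library total after TMM scaling) of Hspa1a reached 1.97 in liver, 1.72 in lung and 1.26 in kidney, above that of 98.5%, 99.2% and 96.3% of all tested genes. Hspa1b had SDs of 1.61, 1.63 and 1.22, above 96.9%, 99.0% and 95.8% of tested genes.

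The partners of Hsp70 differed widely in level. Hsph1 (Hsp110, chr5:150416862-150438951, minus strand), the nucleotide exchange factor that reloads Hsp70, had a lowest, median and highest TPM of 5.65, 21.8 and 159 in liver, 10.3, 39.6 and 285 in lung, and 25.7, 82.6 and 208 in kidney. The highest strain was thus 28.2-fold above the lowest in liver, 27.8-fold in lung and 8.07-fold in kidney. Dnajb1 (Hsp40, chr8:86132074-86135801, plus strand), the J-domain protein that delivers clients to Hsp70, had medians of only 0.9, 2.54 and 1.2 TPM, with a highest value of 5.2 in liver, 11.6 in lung and 6.66 in kidney, and at most 3 counts in 6 liver, 1 lung and 4 kidney libraries. Hspa5 (BiP, chr2:34627490-34632051, plus strand), the Hsp70 of the ER, was as low, with a lowest, median and highest TPM of 0.52, 2.62 and 7.84 in liver, 0.32, 2.95 and 13 in lung, and 0.71, 2.54 and 9.76 in kidney. The files name 2 transcripts for Dnajb1 and for Hspa5 and 1 for each other member. Across the files, the median gene's median CPM was 0.735 for the 18311 genes with 1 named transcript and 0.203 for the 3401 genes with 2, so the low values of Dnajb1 and Hspa5 may not stand for the whole gene. Whether the number of named transcripts set them was not tested.

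Of the other members, Hspb1 (Hsp27, chr5:136363789-136365433, plus strand), a small chaperone that holds unfolded proteins without ATP and is known from muscle and epithelium, was highest in lung. Its lowest, median and highest TPM were 67.9, 244 and 960 in lung, 0, 14.8 and 340 in liver, and 7.72, 28.1 and 113 in kidney. Hspd1 (Hsp60, chr1:55134679-55145087, minus strand), which folds proteins inside mitochondria, was lowest in lung, with 49.8, 141 and 291 TPM there, 182, 464 and 843 in liver, and 327, 818 and 1195 in kidney. Hspd1 also varied least among strains: its SD of log2 CPM came to 0.24 in liver, 0.36 in lung and 0.24 in kidney, above that of 11.5%, 48.2% and 19.2% of tested genes. Hsf1 itself had median TPMs of 0.09, 0.7 and 0.19 in liver, lung and kidney and did not pass the filter on low counts.

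**Figure D1:**
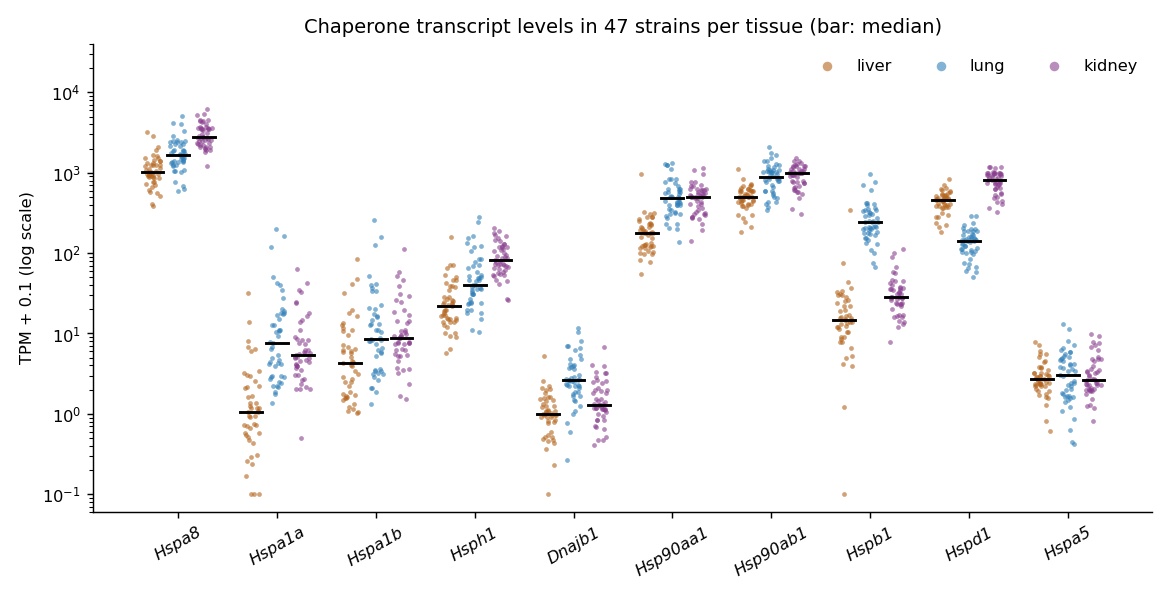
Level of each chaperone gene in each of the 47 strains of each tissue, as TPM + 0.1 on a log axis, 1 point per library with a bar at the median. Hspa8 is the highest gene in every tissue, with medians of 1014, 1656 and 2806 TPM in liver, lung and kidney, and Hspa1a and Hspa1b have the largest SDs of log2 CPM among the members (1.97 and 1.61 in liver, 1.72 and 1.63 in lung, 1.26 and 1.22 in kidney).

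The comparison between tissues asked which chaperone genes differ among the organs of the same mice. It used limma-voom with strain as a block, with a call at an adjusted p (q, Benjamini-Hochberg over 12127 genes) of at most 0.1 and a log2 fold change of 1 or more in either direction. In bulk tissue, fewer cells of a type and less RNA per cell cannot be told apart. For liver against lung, 2 of the 10 members were higher in liver, where 24.0% of all tested genes were called, and 2 were higher in lung, where 31.0% were called. For liver against kidney, 0 members were higher in liver and 1 was higher in kidney, against 15.6% and 20.8% of all tested genes. For lung against kidney, 1 member was higher in lung and 3 were higher in kidney, against 25.4% and 20.7%. With 10 members, none of these counts stood far from the share of all genes. The split of the members moved with the scaling. On log2(TPM + 1) it was 1 higher in liver and 3 higher in lung, 0 in liver and 4 in kidney, and 1 in lung and 1 in kidney, and on total counts it was 1 and 5, 0 and 5, and 1 and 1. With Rn45s and Lars2 left out of the totals it was 1 and 4, 0 and 4, and 1 and 2.

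The largest differences between tissues were in the mitochondrial and the small chaperone, in opposite directions. Hspd1 was 9.19-fold higher in liver than in lung (log2 fold change 3.2 ± 0.04, SE, n = 47 strains, limma-voom q = 2.45e-84) and 8.34-fold lower in lung than in kidney (-3.06 ± 0.04, q = 2.47e-82). In log2 CPM its lung value was below both the liver value and the kidney value in 47 of 47 strains. Hspb1 was 5.15-fold lower in liver than in lung (-2.36 ± 0.12, q = 1.02e-34) and 5.95-fold higher in lung than in kidney (2.57 ± 0.12, q = 1.1e-37), again in 47 of 47 strains each. These 4 differences kept their direction and their call on log2(TPM + 1), where they were 1.71 and -2.53 for Hspd1 and -3.96 and 3 for Hspb1. Between liver and kidney neither gene was called, at 0.14 for Hspd1 and 0.21 for Hspb1, and both values turned negative on log2(TPM + 1), at -0.82 and -0.95.

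In the cytosolic Hsp70 machinery, Hspa8 and Hsph1 were called lower in lung than in kidney, while Hspa1b was at -0.3, Hspa1a at 0.18 and Dnajb1 at 0.4, none of these called. Hspa8 was 2.51-fold lower in lung than in kidney (-1.33 ± 0.05, q = 4.13e-45) and Hsph1 2.59-fold lower (-1.37 ± 0.08, q = 4.49e-30), with log2 CPM lower in lung in 47 and 46 of 47 strains. On log2(TPM + 1) both stayed lower in lung, at -0.82 and -0.88, but fell short of the threshold. Liver against lung gave 0.79 for Hspa8 and 0.5 for Hsph1 on the TMM scale, not called, and -0.69 and -0.97 on log2(TPM + 1), so the direction of this pair of values rests on the scaling. Liver against kidney gave -0.54 ± 0.05 for Hspa8 (q = 1.7e-17) and -0.87 ± 0.08 for Hsph1 (q = 1.01e-17), both short of the fold change threshold. Their log2 CPM was higher in liver than in kidney in 6 and 1 of 47 strains. Hsp90aa1 was at -0.02, -0.48 and -0.46 for liver against lung, liver against kidney and lung against kidney, and Hsp90ab1 at 0.66, 0.09 and -0.57, none of them called. For Dnajb1 liver against lung and liver against kidney gave -0.07 and 0.33, also not called. Hspa5 was called higher in liver than in lung at 1.27 ± 0.15 (q = 7.15e-13), but log2(TPM + 1) gave -0.08 and the call was lost.

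Hspa1a was the only member past the fold change threshold between liver and kidney. It was 2.68-fold lower in liver than in kidney (-1.42 ± 0.15, q = 1.31e-14) and 3.04-fold lower in liver than in lung (-1.6 ± 0.15, q = 3.02e-17). Its near-copy Hspa1b was at 0.03 and 0.33 in the same comparisons, not called and negative on log2(TPM + 1), at -0.89 and -0.95. With the counts of the 2 genes summed, an alternative chosen after seeing the data, the values were -0.39 for liver against kidney, -0.25 for liver against lung and -0.14 for lung against kidney, none called. The tissues therefore differed in how counts were divided within the pair. Hspa1a made up a lowest, median and highest share of the pair's counts of 0%, 16.5% and 50% in liver, 28.8%, 46.4% and 65% in lung, and 20%, 38.4% and 56.8% in kidney. The mean difference was -26.3 percentage points for liver minus lung and -19.3 for liver minus kidney, each above 0 in 3 of 47 strains, and 7.04 for lung minus kidney, above 0 in 39 of 47. Each had p = 1e-05 in a two-sided sign-flip permutation test, the smallest the permutations can give, and 1e-05 adjusted over the 3 comparisons. The pair held a median of 59 counts in liver and 139 in lung and in kidney, which limits the precision of a single liver share.

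**Figure D2:**
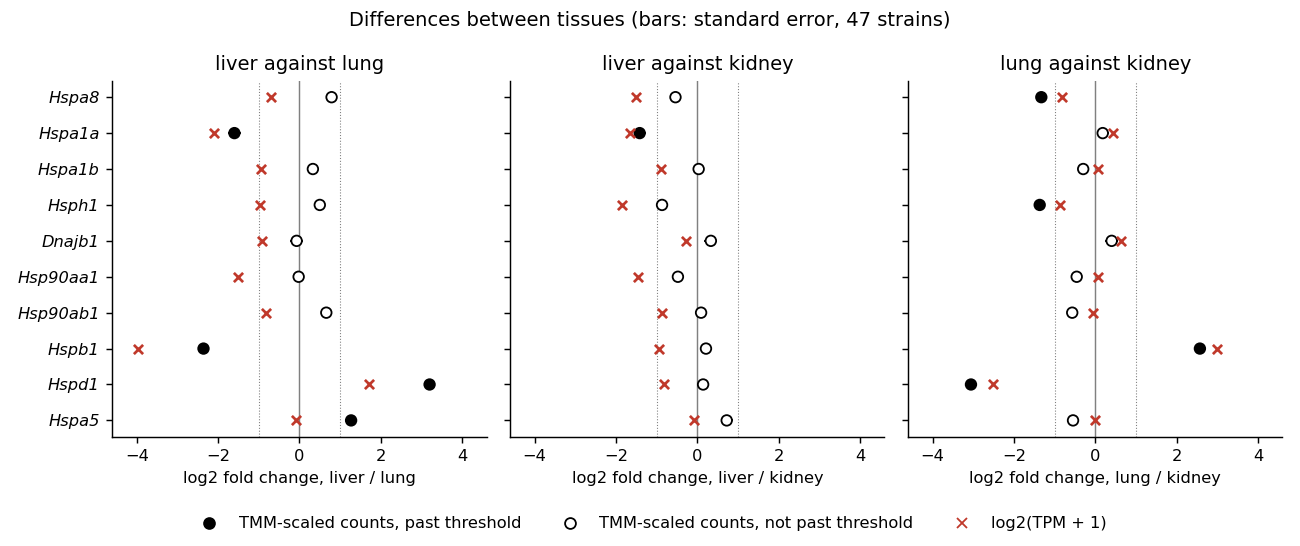
Log2 fold change of each chaperone gene for liver against lung, liver against kidney and lung against kidney, with circles for limma-voom on TMM-scaled counts (filled where past the threshold, bars of 1 SE over 47 strains), crosses for log2(TPM + 1) and dotted lines at 1 and -1. Hspd1 and Hspb1 lie farthest from 0, at 3.2 and -2.36 for liver against lung, and keep their direction in TPM, whereas Hspa8 and Hsph1 for liver against lung turn from 0.79 and 0.5 to -0.69 and -0.97.

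The other chaperone genes are given by the compartment of their protein. Of all tested genes, 24.0% were called higher in liver than in lung and 31.0% higher in lung. The shares were 15.6% toward liver and 20.8% toward kidney, and 25.4% toward lung and 20.7% toward kidney. Of 10 mitochondrial chaperone genes, 9 were called higher in liver than in lung and 9 higher in kidney than in lung, with median log2 fold changes of 2.35 and -1.92 (lung against kidney), led in both by Hspa9, the mitochondrial Hsp70, at 2.92 ± 0.03 and -2.83 ± 0.03. Of 22 tested genes of ER chaperones and the unfolded protein response, 19 were called higher in liver than in lung (median 1.73) and 11 higher in liver than in kidney (median 1), with 0 called lower in liver in either. P4hb, a disulfide isomerase, was at 2.76 ± 0.03 for liver against lung. Among the 8 genes of TRiC, the cytosolic chaperonin, 5 were called higher in liver than in lung (median 1.07), with Cct8 at 1.49 ± 0.03, and 2 higher in kidney than in lung. The 28 tested genes of other cytosolic chaperones and co-chaperones gave 7 calls toward liver and 2 toward lung, 2 toward liver and 1 toward kidney, and 4 toward lung and 4 toward kidney. None of these counts stood well above the share of all genes. In that list Hspb8, a small heat shock protein, was at 2.77 ± 0.1 for liver against lung and 5.3 ± 0.1 for liver against kidney, opposite to Hspb1 in the former. On log2(TPM + 1) the median of all genes moved by over 1 for liver against lung, so these list counts hold for the TMM scale.

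The next comparison asked whether a chaperone gene that is high in one organ of a mouse is also high in its other organs. Spearman's rho over 47 strains was computed for every tested gene, with a permutation p and q over all 12127 genes, and called at a rho above 0 and q of at most 0.1. Of the 10 members, 7 were called between liver and lung, 8 between liver and kidney and 9 between lung and kidney, where 9.72%, 16.3% and 14.8% of all tested genes were called. The median rho of the members was 0.55, 0.49 and 0.5, and that of all tested genes 0.11, 0.15 and 0.14. In all, 30 relations of members were computed.

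Hsph1 had the highest rho of the members between liver and lung and between liver and kidney. Its rho was 0.767 between liver and lung (Pearson's r = 0.828), 0.872 between liver and kidney (r = 0.895) and 0.728 between lung and kidney (r = 0.796), with permutation p = 1e-05 for each rho and each r, the lowest value 100000 permutations allow, with q of 0.000758, 0.000485 and 0.000537. Among all tested genes it ranked 22, 8 and 75. When the 2 strains farthest from the median of the first-named tissue were dropped, r was 0.793, 0.876 and 0.735. The inducible Hsp70 genes were called in all 3 pairs as well, with rho of 0.642, 0.752 and 0.713 for Hspa1b and 0.389, 0.485 and 0.762 for Hspa1a. For both genes the strains CC015, CC041, CC049 and CC061 were among the 5 highest in every tissue. Over the other 43 strains, a selection chosen after seeing the data, rho was 0.533, 0.676 and 0.625 for Hspa1b (r = 0.55, 0.695 and 0.643) and 0.202, 0.329 and 0.69 for Hspa1a (r = 0.218, 0.314 and 0.709), so the relation of Hspa1a with liver rests largely on those strains.

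The abundant cytosolic chaperones were also correlated between organs. In the same order, Hspa8 had rho of 0.699, 0.502 and 0.733, Hsp90aa1 had 0.704, 0.646 and 0.41, and Hsp90ab1 had 0.683, 0.497 and 0.549, all called with q between 0.000485 and 0.0447. Hspb1 was called in all 3 pairs at 0.46, 0.396 and 0.372. Its r between lung and kidney fell from 0.399 to 0.232 without the 2 outermost strains in lung and so rests on them. The members of other compartments and Dnajb1 were less regular. Hspd1 had 0.312, 0.35 and 0.104, called between liver and kidney only, where r fell from 0.488 to 0.271 without the 2 outermost strains in liver. Hspa5 had -0.00717, 0.134 and 0.459 and Dnajb1 had 0.0685, 0.212 and 0.417, both called between lung and kidney only. On log2(TPM + 1), a scale whose totals include Rn45s and Lars2, Hsph1 had 0.562, 0.785 and 0.494, all still called, but the counts of members called fell to 2 between liver and lung, 6 between liver and kidney and 4 between lung and kidney. With Rn45s and Lars2 left out of the totals, an alternative chosen after seeing the data, they were 7, 7 and 8.

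**Figure D3:**
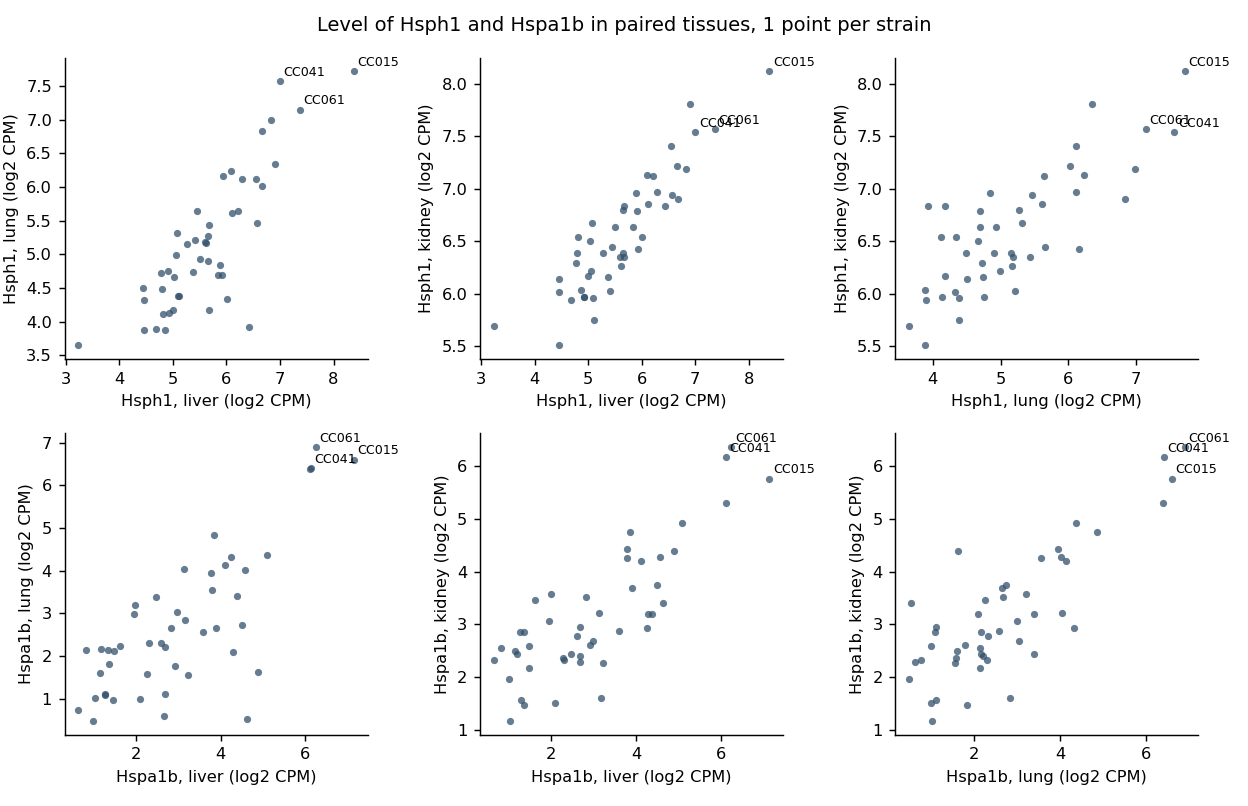
Level of Hsph1 (upper panels) and Hspa1b (lower panels) in log2 CPM (TMM-scaled) in one tissue against another, 1 point per strain, for the 3 pairs of tissues. From left to right, Hsph1 has rho = 0.767, 0.872 and 0.728 over 47 strains, and the labelled strains CC015, CC041 and CC061 lie at the upper right of every panel.

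A few strains were at the top for many chaperones at once. In log2 CPM, CC015 was the highest strain for 9 of 10 members in liver, 8 in lung and 4 in kidney, and CC061 was among the 5 highest for 10 members in liver, 9 in lung and 8 in kidney. The share of all tested genes for which these strains ranked as high was not computed. These counts therefore cannot show a trait particular to the chaperones. For CC015, Hsph1 was at 159 TPM in liver, 69.8 in lung and 191 in kidney, and the sum of Hspa1a and Hspa1b at 115 TPM in liver was the highest of all liver libraries. In lung, where Rn45s and Lars2 took 90.5% of its counts, CC015 was the highest strain for 0 members in TPM. There CC061 was highest for 5 and CC041 for 3, and Hsph1 was at 247 TPM in CC061 and 285 in CC041. Counted in TPM, the strains CC021, CC049 and CC061 were among the 10 highest for Hsph1 in all 3 tissues. Leaving out CC015, chosen after seeing the data, gave 6, 7 and 8 members correlated between liver and lung, liver and kidney, and lung and kidney, and Hsph1 rho of 0.752, 0.864 and 0.71. Leaving out CC015, CC041, CC049 and CC061 together, also chosen after seeing the data, left Hsph1 at 0.697, 0.834 and 0.649 over 43 strains. Over those 43 strains rho fell from 0.41 to 0.26 for Hsp90aa1 between lung and kidney and from 0.417 to 0.271 for Dnajb1. In the same strains rho between lung and kidney fell from 0.372 to 0.245 for Hspb1, and r between liver and kidney fell from 0.296 to 0.0941 for Hspb1 and from 0.488 to 0.302 for Hspd1. Hspb1 between liver and lung fell from r = 0.485 to 0.289. Within tissues, r with Hsph1 fell from 0.57 to 0.336 for Hspa1a in liver and from 0.684 to 0.448 for Hspb1 in lung.

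Within a tissue, the comparison asked which chaperones are high in the same libraries. Hsph1 was the reference, as an HSF1 target without a near-identical copy, and rho with it was computed for all other 12126 tested genes, 27 of these relations being with members. In liver, 6 of the 9 other members were called, against 0.651% of all genes, in lung 7 of 9 against 5.64%, and in kidney 6 of 9 against 1.27%. In all, 6 cytosolic genes were called in all 3 tissues. Hsp90aa1 had rho of 0.803 in liver, 0.908 in lung and 0.658 in kidney (r = 0.816, 0.925 and 0.721), Hsp90ab1 0.79, 0.758 and 0.697, and Hspa8 0.715, 0.868 and 0.622, each with permutation p = 1e-05. Hspa1b followed at 0.679, 0.747 and 0.739, Hspa1a at 0.551, 0.72 and 0.638, and Hspb1 at 0.571, 0.584 and 0.497.

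The mitochondrial Hspd1 went with Hsph1 in lung, at 0.818 and q = 0.00157, while its rho of 0.399 in liver and 0.34 in kidney did not pass (q = 0.206 and 0.317), and the difference between tissues was not tested. Hspa5, at 0.349, 0.175 and 0.327, and Dnajb1, at 0.296, 0.22 and 0.267, were not called in any tissue. Their median counts in liver, lung and kidney were low, at 22, 18 and 22 for Hspa5 and 10, 22 and 13 for Dnajb1. Hspa1a in liver had a median of 11 counts and was called, and whether low counts set these values was not tested. Over all 45 pairs of members, the median rho came to 0.417 in liver, 0.53 in lung and 0.391 in kidney, and 16, 23 and 11 pairs had a rho of at least 0.5. Among the 73526001 pairs of all tested genes, 0.196%, 0.864% and 0.439% had such a rho. The pair Hspa1a and Hspa1b, which share sequence, had 0.788, 0.935 and 0.893. Over members and tissues, rho of TMM-scaled log2 CPM with total counts was between -0.18 and 0.19. With the Rn45s and Lars2 share it was between -0.28 and 0.21. TMM scaling adjusts for such a share beforehand, so these low values cannot tell whether the share bears on the joint rise of the members.

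**Figure D4:**
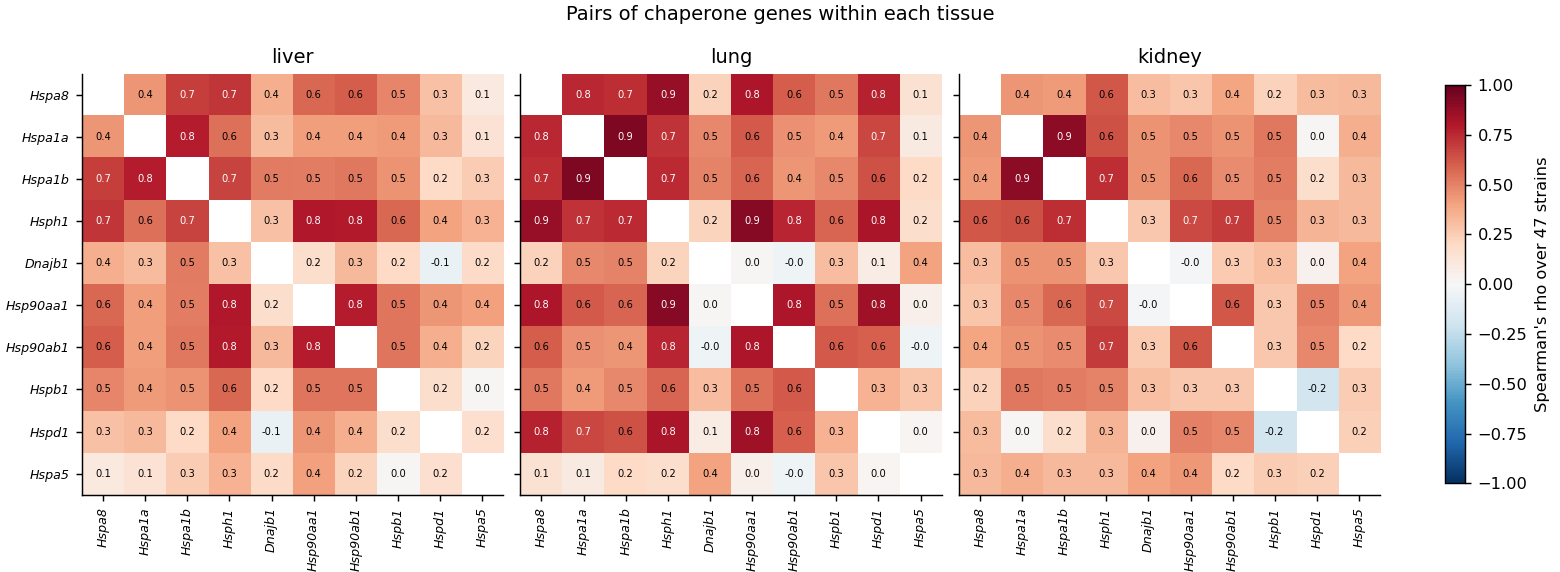
Spearman's rho of each pair of chaperone genes over 47 strains in liver, lung and kidney, printed in each cell and coloured from -1 to 1. The row of Hsph1 is darkest for Hsp90aa1 in liver (0.803) and lung (0.908) and for Hspa1b in kidney (0.739). It is pale for Hspa5 (0.349, 0.175 and 0.327) and Dnajb1 (0.296, 0.22 and 0.267).

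The genes outside the 10 whose level was most like that of Hsph1, by the mean of the 3 within-tissue values of rho over 47 strains each, were largely Hsp90 co-chaperones. Chordc1, an Hsp90-binding zinc protein, had rho of 0.843 in liver, 0.837 in lung and 0.794 in kidney. Stip1, the adaptor that joins Hsp70 to Hsp90, had 0.764, 0.86 and 0.795. Next came Tra2a, a splicing factor, at 0.724, 0.727 and 0.705, Cacybp, an Hsp90-associated adaptor of ubiquitin ligases, at 0.607, 0.887 and 0.617, and Ahsa1, the activator of the Hsp90 ATPase, at 0.601, 0.825 and 0.681, and all 5 were called in every tissue. By single tissue, Slc5a3, a myo-inositol transporter, was also among the 3 highest in liver at 0.734 and in lung at 0.872, but had 0.364 in kidney, and Hspa4l, an Hsp110 relative, was among the 3 highest in lung at 0.863. Of the 28 tested genes of other cytosolic chaperones, 8 were called positive with Hsph1 in liver, 14 in lung and 10 in kidney. In lung 1 was called negative, Stub1, a ubiquitin ligase of Hsp70 clients, at -0.406 (q = 0.0629), named after its value was seen. Among all 12126 genes, 46 were called negative in liver, 794 in lung and 54 in kidney. Positive calls made up 0.651% of all genes for liver, 5.64% for lung and 1.27% for kidney. Beside these shares, the TRiC genes gave 0, 7 and 0 of 8, the mitochondrial chaperones 0, 3 and 0 of 10, and the ER genes 1, 11 and 8 of 22. Lung had the highest share over all genes as well, and whether a list differed between tissues was not tested. Of 12 clock genes 0, 0 and 2 were called positive and 0, 2 and 0 negative, the 2 in lung being Nr1d1 at -0.537 (q = 0.00996) and Dbp at -0.43 (q = 0.0442), also named after their values were seen. Of 15 immediate-early genes 0, 2 and 0 were called positive. Counts of 2 among 12 or 15 genes are small and were not tested against the calls over all genes.

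At the other end of the order stood Cirbp, an RNA-binding protein induced by mild cold and lowered by heat. Its level in TPM ran over a lowest, median and highest value of 4.95, 22.2 and 57.6 in liver, 4.49, 90.6 and 173 in lung, and 9.25, 46.8 and 119 in kidney. Its rho with Hsph1 fell to -0.673 in liver, -0.77 in lung and -0.708 in kidney (r = -0.735, -0.765 and -0.753), the lowest of 12126 genes in each tissue, with permutation p = 1e-05 and q = 0.00866, 0.00157 and 0.00527. Dropping the 2 strains whose Hsph1 lay farthest from its median gave r of -0.66, -0.747 and -0.66. Without CC015, CC041, CC049 and CC061 rho was -0.606, -0.715 and -0.652. CC015, with the highest liver Hsph1, had 7.44 TPM of Cirbp in liver, 4.49 in lung and 9.25 in kidney, ranking 45, 47 and 47 of 47 strains. Cirbp was itself correlated between organs, at 0.741 between liver and lung, 0.663 between liver and kidney and 0.741 between lung and kidney. Rbm3, another cold-inducible RNA-binding protein, had positive values with Hsph1, at a rho of 0.286 in liver (q = 0.424, not called), 0.58 in lung (q = 0.00391) and 0.554 in kidney (q = 0.0278).

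**Figure D5:**
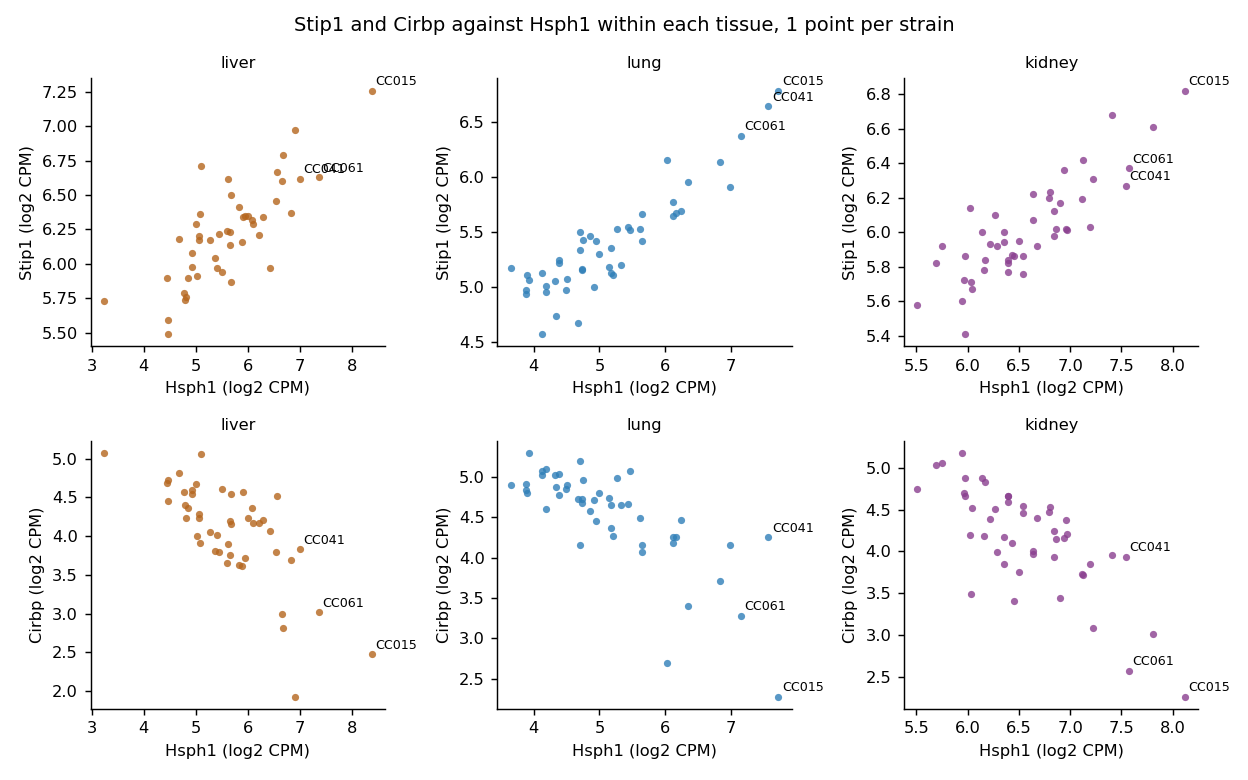
Level of Stip1 (upper panels) and Cirbp (lower panels) against that of Hsph1 in liver, lung and kidney, both axes in log2 CPM (TMM-scaled), 1 point per strain. Stip1 rises with Hsph1 (rho = 0.764, 0.86 and 0.795) and Cirbp falls (rho = -0.673, -0.77 and -0.708), and CC015 lies at the right end of every panel.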

How the data were processed

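RNA-seq had been made from liver, lung and kidney of males of 47 CC strains, 1 animal per strain. The authors filtered reads by quality, removed adapters, mapped them to strain-specific pseudo-genomes of mouse Build 37 (mm9) with RefSeq transcripts using RSEM with STAR 2.5.3a, and quantified uniquely aligned reads. The deposited files give per gene an expected count (RSEM's estimate, not normalized), a TPM value and an FPKM value, of which the FPKM values deposited by the authors were not used. Here expected counts were rounded, a gene was kept if its CPM exceeded 1 in 30% or more of the 141 libraries, and TMM factors (edgeR 4.0.16) and limma-voom (limma 3.58.1, R 4.3.3) were fitted over 12127 genes with strain as a block and tissue as a factor. Reported log2 CPM values used a prior count of 1. TPM values deposited by the authors were used for levels, since they are per length.

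Samples were grouped by the tissue in their labels and paired by strain, since the 3 libraries of a strain came from 1 mouse. Correlations were Spearman's rho and Pearson's r on log2 CPM over 47 strains, with 100000 permutations of the strains and two-sided p, adjusted by Benjamini-Hochberg over all tested genes. The 2 strains left out of r were those farthest from the median of the first-named tissue, or of Hsph1 within a tissue. Strains far out only in the other tissue or gene stayed in. Total expected counts of 1738046 to 42158454 per library set the counting error, and a gene at 3 counts or fewer in a library was taken as near its floor. Both procedures were tested on simulated data. The members and gene lists were chosen with earlier results of these data known. Genes named besides the 10 members were taken from each list as the called gene with the largest absolute log2 fold change per tissue pair and direction. Such a gene was named only where a sentence turned on it. Also named were the 5 genes with the highest mean rho with Hsph1 and the 3 highest in each tissue, and always Cirbp, Rbm3 and Hsf1. Alternatives were other scalings (DESeq2 1.42.0 size factors, total counts, TPM), other tests (edgeR quasi-likelihood, DESeq2), filters, thresholds, fits without the strain block, strains left out, regression on library size or a first principal component, and other reference members. Because each group is 47 strains, single strains were not left out in turn, and no test for outlying samples was run at this group size. Gene positions are from GENCODE on NCBIM37, and promoter windows from RefSeq on GRCm38.p6. Positions were not converted between builds.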

Additional observations from a re-analysis of the deposited data

How the results depend on the processing

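Of 444 alternative values of the members' tissue fold changes, 339 kept their direction and their side of the threshold, 36 passed it anew, 9 fell below it and 60 changed sign. For rho between tissues, 301 of 360 alternatives kept both, 53 fell below the threshold and 6 changed sign, and for rho with Hsph1 304 of 324 kept both, 15 passed anew and 5 fell below. Pairing rests on the 3 libraries of a strain coming from 1 mouse, and a fit with no replicate block (no strain term) gave 4, 1 and 4 members past the threshold for liver against lung, liver against kidney and lung against kidney, the counts with the block. Without the block, Dnajb1 was at 0.04 for liver against lung, Hspa1b at -0.28 and Hspb1 at -0.01 for liver against kidney, and Hspa1a at -0.18 for lung against kidney, none called and each opposite in sign to its value with the block.

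Counts of members past the threshold that moved by over 1.5 times were 8, 8 and 9 with no fold change threshold for the 3 tissue pairs in the same order. For liver against kidney they were 5 on total counts, 4 on log2(TPM + 1), 6 on log2(TPM + 0.1), 0 with Hspa1a and Hspa1b summed, 4 on total counts without Rn45s and Lars2 and 2 by the DESeq2 Wald test. For lung against kidney they were 2 on total counts, 2 on log2(TPM + 1) and 2 on log2(TPM + 0.1). Members correlated between liver and lung fell to 1 on total counts and 2 on log2(TPM + 1), between liver and kidney to 5 at q of at most 0.01 and 4 on total counts, and between lung and kidney to 5 at q of at most 0.01, 3 on total counts and 4 on log2(TPM + 1). With Dnajb1 in place of Hsph1 as reference, 0, 2 and 2 members were called in liver, lung and kidney, and with Hspa8 as reference 1 in kidney. The cause of these moves was not tested beyond the scale itself.

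The values that changed sign were as follows, and of these Hspa5 for liver against lung (1.27) and the rank correlation of Hsp90ab1 between liver and lung (0.683) had been called. For liver against lung, log2(TPM + 1) gave -0.95 for Hspa1b, -0.08 for Hspa5, -0.69 for Hspa8, -0.97 for Hsph1 and -0.83 for Hsp90ab1, log2(TPM + 0.1) gave -1.12, -0.04, -0.69, -1 and -0.83, total counts gave -1.01 for Hspa1b, -0.57 for Hspa8, -0.88 for Hsph1 and -0.71 for Hsp90ab1, and total counts without Rn45s and Lars2 gave -0.86, -0.39, -0.69 and -0.53. For liver against kidney, log2(TPM + 1) gave -0.89 for Hspa1b, -0.09 for Hspa5, -0.88 for Hsp90ab1, -0.95 for Hspb1, -0.82 for Hspd1 and -0.29 for Dnajb1, log2(TPM + 0.1) gave -1.08, -0.12, -0.88, -1.08, -0.82 and -0.54, total counts gave -1.07, -0.15, -0.86, -0.93, -0.8 and -0.6, and total counts without Rn45s and Lars2 gave -0.8, -0.11, -0.75, -0.63, -0.7 and -0.5. For lung against kidney, Hspa1b was at 0.06 on log2(TPM + 1), 0.04 on log2(TPM + 0.1) and 0.06 on total counts without Rn45s and Lars2, and Hsp90aa1 at 0.06 on both TPM scales. For liver against kidney the DESeq2 Wald test gave -0.19 for Hspa1b, -0.02 for Hsp90ab1 and -0.05 for Hspb1, DESeq2 size factors gave -0.07 for Hspa1b and -0.02 for Hsp90ab1, and Hspa1b was at -0.05 by edgeR quasi-likelihood, -0.03 with no low-count filter and -0.09 without strain CC015. Over the 36 strains left without the shallowest libraries, Dnajb1 was at 0.05 for liver against lung. The rank correlation between liver and lung changed sign for Hspa5, at 0.086 after regression on the first principal component, 0.213 on log2(TPM + 1) and 0.278 on total counts, for Hspd1 at -0.103 on log2(TPM + 1) and -0.132 on total counts, and for Hsp90ab1 at -0.075 on total counts. Without CC015, 6 members in liver, 7 in lung and 5 in kidney were called with Hsph1. The alternatives with summed Hspa1 genes, with Rn45s and Lars2 removed or regressed out, and without CC015 were chosen after seeing the data. Depth limits the precision of Hspa1a in liver, and of Dnajb1 and Hspa5 in every tissue, where small differences may be missed.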
